A study of Mus musculus with 24 samples.

Results

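The 7 genes described here encode the proteins that carry out microRNA (miRNA) silencing: the Argonaute genes Ago1, Ago2, Ago3 and Ago4 and the GW182 family genes Tnrc6a, Tnrc6b and Tnrc6c. They were chosen with earlier results of these data known and were matched by symbol. All 7 were among the 49315 genes of the deposited count table and among the 17579 genes expressed highly enough to be tested. The values come from RNA of sorted mouse brain microglia, in 24 libraries of 8 groups with 3 biological replicates each. Microglia were taken as CD11b+ cells of intermediate CD45 level.

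All animals received tamoxifen. In Cx3cr1 Cre+ animals, creERT2 sits at Cx3cr1, the fractalkine receptor gene expressed by microglia and some other myeloid cells, and tamoxifen is meant to delete Dicer1. Cx3cr1 Cre- animals are the controls and lack the recombinase. Each genotype was sampled in 4 states. Naive animals received tamoxifen only. Demyelination animals were fed the copper chelator cuprizone (CUP), which kills oligodendrocytes, for 6 weeks. Remyelination animals had 6 weeks of cuprizone and then 6 weeks of normal diet, and formed separate groups by the time of tamoxifen: at the start, or at the peak of demyelination, in week 5 of cuprizone. The design text puts the tamoxifen of the demyelination and start groups at 4 to 5 weeks without saying from what point that is counted. Age and strain are not stated in the labels, and each library is 1 sample of a whole sorted population.

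Dicer cuts miRNA precursors into mature miRNAs, and an Argonaute protein then holds the mature strand and pairs its seed, bases 2 to 8, with sites in the 3′ untranslated region (3′ UTR) of mRNAs. Ago2 is the only one of the 4 mouse Argonautes known to slice a fully paired target efficiently. Tnrc6 proteins bind Argonaute through their glycine-tryptophan repeats and bring in the CCR4-NOT and PAN2-PAN3 deadenylases, after which the mRNA is decapped and degraded or its translation is repressed. Argonaute protein that holds no miRNA is known to be less stable, so a transcript level does not give the protein level.

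The 7 transcripts are long, with exonic lengths (all annotated exons merged) of 6947 to 23677 bases against a median of 3690 over tested genes. Ago1, Ago3 and Ago4 are neighbours on the minus strand of chromosome 4 (GRCm38 4:126435012-126468583, 4:126331704-126429556 and 4:126489541-126533472). Ago2 lies on the minus strand of chromosome 15 (15:73095844-73184935) and Tnrc6b on its plus strand (15:80711313-80941085). Tnrc6a and Tnrc6c are on plus strands of chromosomes 7 (7:123123885-123195296) and 11 (11:117654289-117763439). Each 3′ UTR described here is that of the longest annotated coding transcript that has one. The 3′ UTRs of Ago3 (12742 bases), Tnrc6b (11609 bases) and Ago2 (11064 bases) are among the longest of the 13542 tested genes with one, whose median is 1210 bases. Those of Ago1 (4491 bases), Ago4 (3682 bases), Tnrc6c (2588 bases) and Tnrc6a (2345 bases) are shorter.

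Because these genes are both effectors and possible targets of miRNAs, the 3′ UTRs were searched on the sense strand for seed sites of 18 miRNA families chosen as known in microglia. A site was the 7 bases that pair with the seed, followed by A, in the 3′ UTR of the longest coding transcript that has one. The 3′ UTRs of other isoforms were not searched. Mature sequences are from RefSeq (GRCm38.p6), where 18 of 19 listed families matched and miR-124 did not. The following 4 mature miRNAs are those whose sites are described below, with the seed in capitals. Sites of other families, among them miR-223, also recur among the 7 genes.
mmu-miR-26a-5p: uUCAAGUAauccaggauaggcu
mmu-miR-23a-3p: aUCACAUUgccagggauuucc
mmu-miR-30c-5p: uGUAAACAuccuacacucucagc
mmu-let-7a-5p: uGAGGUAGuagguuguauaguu

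All 3 Tnrc6 genes held a miR-26 site followed closely by a miR-23 site in the 3′ UTR. The miR-26 site began 150 bases from the stop codon in Tnrc6a, 238 bases in Tnrc6b and 582 bases in Tnrc6c, and the site starts were 27, 32 and 27 bases apart in that order of genes. Within a window of 50 bases this order of sites occurred in 5 of the 13542 tested 3′ UTRs (0.0369%), those of the 3 Tnrc6 genes and of Grtp1 and Zic5. The pair was noticed in the site positions before it was counted, and the 3 genes are paralogs, so they are not independent. The letters below are the sense strand of GRCm38 with the site in capitals.
Tnrc6a miR-26 site, chr7:123193101-123193108: atcagtttgaaTACTTGAAtcatgc
Tnrc6b miR-26 site, chr15:80929714-80929721: cactcttgaaaTACTTGAAtcatga
Tnrc6c miR-26 site, chr11:117761433-117761440: aaacatgcaaaTACTTGAAcccagc
Tnrc6a miR-23 site, chr7:123193128-123193135: gccaatattatAATGTGAAagggta
Tnrc6b miR-23 site, chr15:80929746-80929753: cctagaaagacAATGTGAAgcaagt
Tnrc6c miR-23 site, chr11:117761460-117761467: gccaataccgaAATGTGAAcacttc

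A miR-30 site stood in the 3′ UTR of 6 of the 7 genes, all but Ago2, with 3 sites in Tnrc6b and 2 in Tnrc6a. Among genes outside the 7 with a 3′ UTR of similar length (0.8 to 1.25 times), 12.3% of 2223 held a miR-30 site for Tnrc6a, 17.7% of 1563 for Ago4 and 53.1% of 32 for Ago3. Let-7 sites stood in Ago2 and Ago3 only. Such a site occurred in 28.1% of the 57 genes with a 3′ UTR as long as that of Ago2, and in 28.1% of the 32 as long as that of Ago3. These sites are shown because let-7 is among the most abundant miRNA families of the brain.
Ago2 let-7 site, chr15:73097982-73097989, minus strand: acaatgtggatCTACCTCAgttaaa
Ago3 let-7 site, chr4:126335040-126335047, minus strand: cctgccctcacCTACCTCAccaagt
Ago4 miR-30 site, chr4:126491418-126491425, minus strand: agatacattcaTGTTTACAtttctg

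Of the 18 families, Ago3 held sites for 9, Tnrc6b for 6, Ago1 and Ago2 for 4 each, Tnrc6a and Tnrc6c for 3 each and Ago4 for 1. The medians among genes of similar 3′ UTR length were 5 families for Ago3, Tnrc6b and Ago2, 2 for Ago1 and Ago4, and 1 for Tnrc6a and Tnrc6c. A match of letters describes the sequence and does not show that a site is used.

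**Figure D1:**
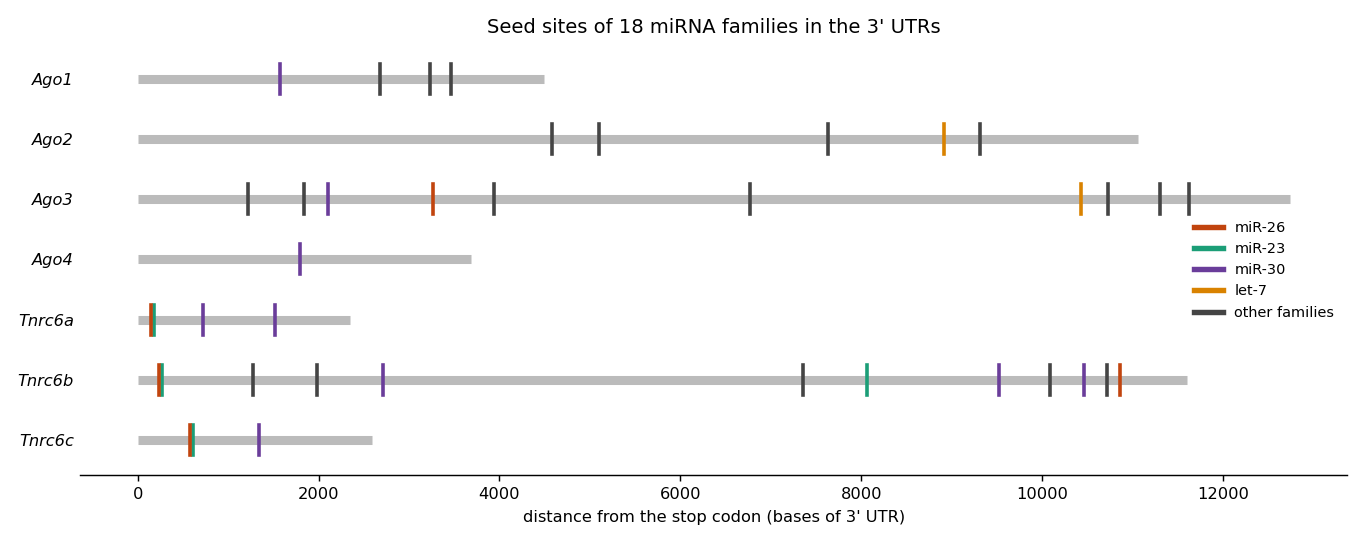
Positions of 8-base seed sites for 18 miRNA families along the 3′ UTRs of the 7 genes, drawn to scale as the distance in bases from the stop codon; grey bars are the 3′ UTRs and vertical marks the sites, in colour for miR-26, miR-23, miR-30 and let-7 and dark grey for other families. The adjoining miR-26 and miR-23 marks stand 150 to 609 bases from the stop codon in the 3 Tnrc6 genes, and the longest 3′ UTR is that of Ago3 with 12742 bases.

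Totals per library were 19.48 to 44.53 M assigned counts (M for mega) for naive, 21.87 to 32.71 M for demyelination, 8.87 to 12.56 M for the start groups of remyelination and 8.94 to 12.09 M for its peak groups. Even the lowest member count, 173 reads of Ago4, was far above zero. All 7 microglial markers were detected in every library, their summed level was 28200 to 57700 CPM (the count of a gene relative to the total of its library), and no pair of libraries was near identical (highest r 0.9903). In Cre+ libraries Cx3cr1 stood at 41.5% to 59.3% of the Cre- mean of the same state, except in naive Cre+ replicate 1 (2.18%) and in demyelination Cre+ replicates 1 and 3 (1.87% and 1.61%). These 3 libraries stand apart, and calls of the 7 genes that change without them are named beside the result. Dicer1 counts sum all exons, so the deleted segment was not resolved: naive Dicer1 was 21.81, 22.06 and 24.31 CPM in Cre+ and 18.55, 11.1 and 12.07 CPM in Cre- libraries (0.72 ± 0.16, adjusted p = 0.00151, edgeR). Dicer1 was not called lower in any state, with -0.45 ± 0.16 in demyelination (adjusted p = 0.0922), -0.10 ± 0.16 in the start groups and -0.06 ± 0.16 in the peak groups. Loss of Dicer1 is thus taken from the labels, and the insertion into Cx3cr1 is a further difference between the genotypes. In bulk samples, a shift in the mix of cells and a change within each cell cannot be told apart.

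The first comparison asked how the silencing genes differ between genotypes in resting microglia. In naive microglia 6 of the 7 genes were higher in Cre+ than in Cre- (adjusted p under 0.05, edgeR quasi-likelihood F test with Benjamini-Hochberg adjustment over all 17579 genes) and none was lower. Of all genes tested, 14.7% were called higher. The median log2 change was 0.74 over the 7 genes and -0.01 over all genes. Because the 7 genes were chosen with earlier results of these data known, their contrast with all genes is a description. Log2 changes are given with their standard error (SE) from the fit, and CPM are scaled by TMM.

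Ago2, the slicing Argonaute, had 39.45, 40.23 and 41.81 CPM in naive Cre+ libraries, against 22.83, 17.12 and 16.5 CPM in naive Cre- libraries. The Cre+ libraries lay within 3 CPM of each other and far above all Cre- libraries. The log2 change was 1.11 ± 0.14 (SE, adjusted p = 2.37e-06, edgeR), a 2.16-fold difference.

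Tnrc6c, the scaffold paralog with the largest relative difference, had 34.73, 35.5 and 37.96 CPM in Cre+ and 22.01, 14.5 and 14.48 CPM in Cre- libraries. The groups did not overlap, and naive Cre- replicate 1 was the highest of its group here as it was for Ago2. The log2 change was 1.1 ± 0.14 (adjusted p = 4.32e-06, edgeR). That library was also the shallowest of the naive state, with 19.48 M counts. Without it the changes were the largest of those with 1 library left out, 1.26 for Ago2 and 1.31 for Tnrc6c.

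Ago4, the least abundant Argonaute transcript, had 15.63, 14.93 and 16.23 CPM in Cre+ and 10.81, 7.817 and 8.017 CPM in Cre- libraries (0.82 ± 0.14, adjusted p = 7.35e-05, edgeR). Tnrc6a had 72.91, 63.96 and 58.96 CPM in Cre+ and 39.47, 42.05 and 35.89 CPM in Cre- libraries (0.74 ± 0.10, adjusted p = 1.15e-05, edgeR). Neither gene overlapped between genotypes.

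Tnrc6b, the most abundant of the 7 in CPM, had 123.4, 111.8 and 103 CPM in Cre+ and 73.72, 72.93 and 70.7 CPM in Cre- libraries (0.64 ± 0.10, adjusted p = 5.27e-05, edgeR). Ago1 had 37.07, 30.71 and 29.34 CPM in Cre+ and 25.96, 26.31 and 20.16 CPM in Cre- libraries (0.42 ± 0.11, adjusted p = 0.00601, edgeR). In both genes the highest library was Cre+ replicate 1, 1 of the 3 libraries of very low Cx3cr1.

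Ago3 was the exception: 49.94, 53.43 and 45.81 CPM in Cre+ overlapped with 41.5, 46.24 and 44.87 CPM in Cre- libraries (0.17 ± 0.10, adjusted p = 0.195, edgeR). Its interval, -0.03 to 0.37 (95%, 16 residual degrees of freedom), lay below the estimate of every other gene. Groups without overlap and higher in Cre+ were found for the other 6 genes, and for 19.7% of all genes.

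Longer genes were higher in naive Cre+ more often: Spearman rho between log2 change and exonic length was 0.31 across 10565 genes, which share the 24 libraries and are not independent. With a correction for GC content and exonic length, Ago2 (0.86), Tnrc6c (0.86), Ago4 (0.65), Tnrc6a (0.49) and Tnrc6b (0.38) were still called higher in naive Cre+ (adjusted p at most 0.00657, edgeR). Ago1 was not called (0.23, adjusted p = 0.2, edgeR), and Ago3 was at 0. Without the 3 libraries of low Cx3cr1 the same 5 genes were called (0.54 to 1.1), and Ago1 was not (0.28, adjusted p = 0.12, edgeR). Ago1 also lost its call without naive Cre+ replicate 1 (0.31, adjusted p = 0.0624) or without naive Cre- replicate 3 (0.30, adjusted p = 0.0532, both edgeR).

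Summed markers of other cells differed between naive genotypes as well. All 5 astrocyte markers were detected, with sums of 268 to 310 CPM (Cre+) and 405 to 509 CPM (Cre-). Sums of the 5 border macrophage markers were 12 to 15.3 CPM (Cre+) and 18 to 24.3 CPM (Cre-), with 1 marker called higher and 1 called lower in Cre+. Those of the 4 monocyte markers were 10.4 to 13.9 CPM (Cre+) and 14.7 to 16 CPM (Cre-), again with 1 called higher and 1 lower. The 5 neuron markers summed to 5.1 to 6.65 CPM (Cre+) and 2.54 to 4.05 CPM (Cre-). Of the 5 T, NK and B cell markers, 1 was at 0 in each naive group, and their sums were at most 0.768 CPM. The part of these cells in the result was not tested. Of the 7 microglial markers, 2 were called lower and none higher in naive Cre+.

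**Figure D2:**
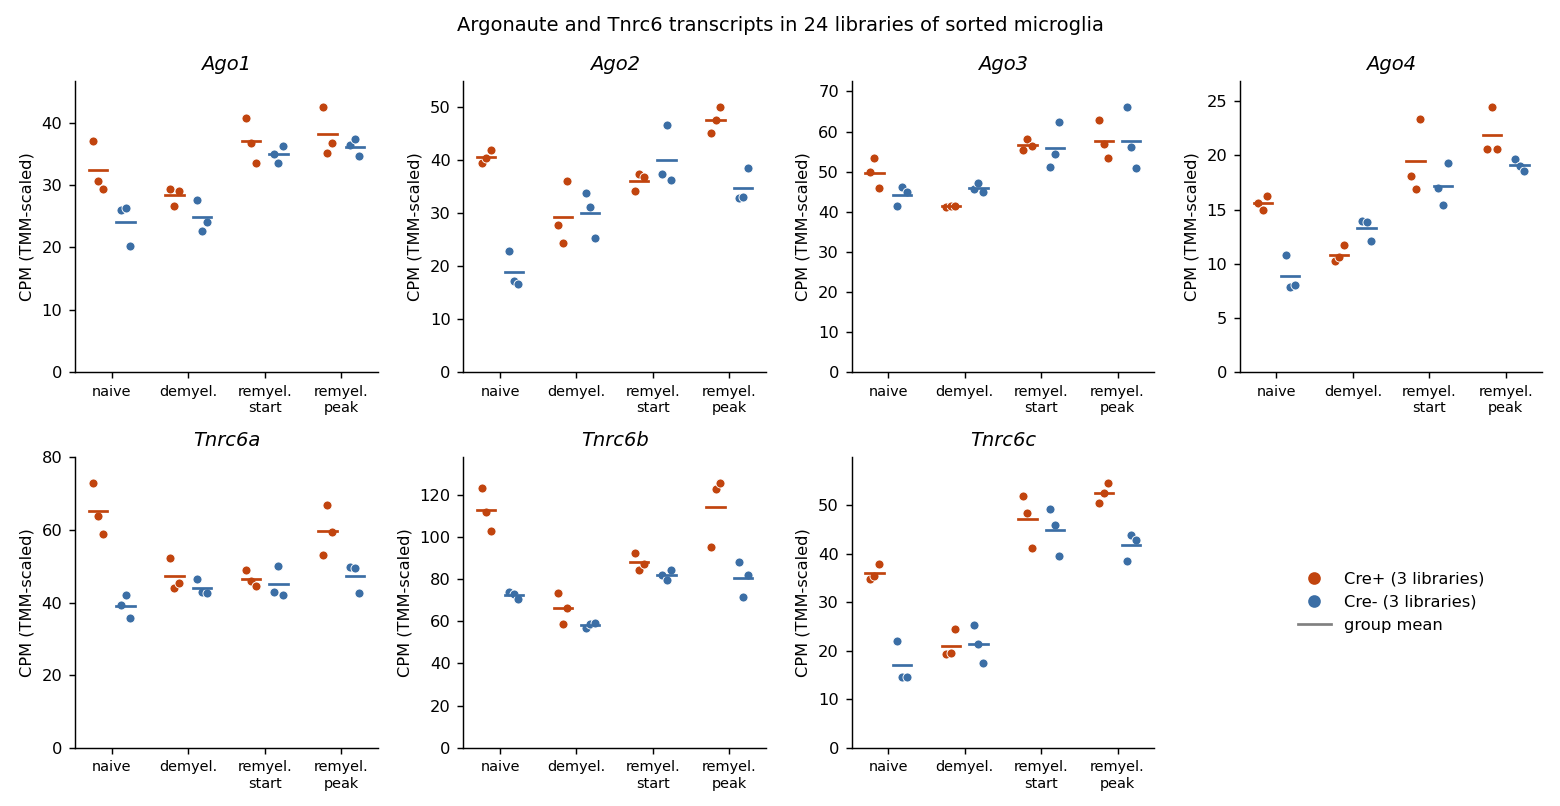
CPM of the 7 genes in each of the 24 libraries (vertical axes from 0, TMM-scaled), by state, with 3 Cre+ (red-orange) and 3 Cre- (blue) libraries and their mean as a line. In the naive state Cre+ lies above Cre- without overlap for every gene but Ago3; in demyelination and with tamoxifen at the start the genotypes lie close together.

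Per kilobase of exon, the summed Argonaute level was 11.7 to 12.6 CPM per kb in naive Cre+ and 7.52 to 8.89 in naive Cre- libraries. Ago2 made up 23.9% of that sum in Cre+ (22.2% to 25.5% by library) and 16.2% in Cre- (14.6% to 18.3%), with no overlap. Ago3 made up 24.8% in Cre+ and 32.5% in Cre-. Ago1 had the highest share of the 4 on this scale, 32.8% in Cre+ and 35.9% in Cre-. The summed Tnrc6 level was 11.9 to 13.7 CPM per kb in Cre+ and 6.94 to 7.93 in Cre-, and Tnrc6c made up 22.2% of it in Cre+ and 17.6% in Cre-. These shares assume that each library uses the full annotated length of every gene.

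In demyelination none of the 7 genes was called in Cre+ against Cre- (lowest adjusted p 0.196 by edgeR, 1 gene at an unadjusted p under 0.05, 0 called by DESeq2), where 9.17% of all genes were called in either direction. The median log2 change was -0.02 over the 7 genes and -0.01 over all genes. Ago2 had 27.66, 24.24 and 35.9 CPM in Cre+ and 33.76, 31.01 and 25.16 CPM in Cre- libraries (-0.04 ± 0.14, adjusted p = 0.92, edgeR). Tnrc6c had 19.33, 19.48 and 24.4 CPM in Cre+ and 25.21, 21.32 and 17.55 CPM in Cre- libraries (-0.02 ± 0.14, adjusted p = 0.958, edgeR). For both genes the genotypes overlapped.

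Ago4 was the gene at an unadjusted p under 0.05 in demyelination, with 10.23, 10.61 and 11.72 CPM in Cre+ and 13.98, 13.9 and 12.11 CPM in Cre- libraries (-0.30 ± 0.14, adjusted p = 0.196, edgeR). The groups did not overlap, but the change did not pass the threshold. Ago3 did not overlap either, with 41.26, 41.36 and 41.36 CPM in Cre+ and 45.55, 47.23 and 44.98 CPM in Cre- libraries (-0.15 ± 0.10, adjusted p = 0.374, edgeR). Of all genes, 15.4% were lower in demyelination Cre+ without overlap. Without the 3 libraries of low Cx3cr1, which leaves 1 demyelination Cre+ library taken to vary like the other groups, the 7 changes ran from -0.29 to 0.15 and none was called. The mitochondrial share of counts was higher in all demyelination libraries (0.73% to 0.916%) than in the naive ones (0.281% to 0.521%), and the 6 neutrophil markers, all detected, had sums of 1210 to 1520 CPM (demyelination Cre+) and 181 to 784 CPM (demyelination Cre-), with none of the 6 called. Sums without overlap between genotypes were also those of border macrophage markers (65.4 to 76.1 CPM for Cre+, 92.4 to 153 CPM for Cre-, 2 of 5 called lower), monocyte markers (29.8 to 45.8 CPM for Cre+, 62 to 110 CPM for Cre-, 2 of 4 called lower), neuron markers (2.29 to 2.75 CPM for Cre+, 2.89 to 3.34 CPM for Cre-, none called) and endothelial markers (108 to 110 CPM for Cre+, 80 to 99.7 CPM for Cre-, none called). The 3 oligodendrocyte precursor markers summed to 63.7 to 110 CPM for Cre+ and 35 to 48.5 CPM for Cre-, with 1 called higher and 1 called lower. Of these 3, 1 reached 109 CPM in a library and the others at most 3.12 and 1.96 CPM. The part of these cells in the demyelination values was not tested.

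In remyelination with tamoxifen at the start, too, none of the 7 genes was called (lowest adjusted p 0.758 by edgeR, 0 genes at an unadjusted p under 0.05, 0 called by DESeq2). Only 0.0341% of all genes were called in that comparison, so a lack of calls is the rule there. Ago2 had 34.06, 37.27 and 36.65 CPM in Cre+ and 37.39, 46.58 and 36.15 CPM in Cre- libraries, and all 7 genes overlapped between genotypes. The 7 changes ran from -0.15 (Ago2) to 0.17 (Ago4), and their 95% intervals from -0.45 to 0.47.

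With tamoxifen at the peak, 3 of the 7 genes were higher in Cre+ and none was lower, where 6.99% of all genes were called higher. The 3 were Ago2, Tnrc6a and Tnrc6b. The median log2 change was 0.33 over the 7 genes and -0.01 over all genes. Ago2 had 44.98, 47.48 and 49.84 CPM in Cre+ and 32.76, 32.95 and 38.44 CPM in Cre- libraries (0.45 ± 0.14, adjusted p = 0.0359, edgeR). Tnrc6b had 95.26, 122.7 and 125.6 CPM in Cre+ and 88.05, 71.4 and 82.07 CPM in Cre- libraries (0.51 ± 0.10, adjusted p = 0.00194, edgeR). Tnrc6a had 53.2, 66.92 and 59.33 CPM in Cre+ and 49.89, 49.46 and 42.72 CPM in Cre- libraries (0.34 ± 0.11, adjusted p = 0.0412, edgeR). In none of these genes did the groups overlap.

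Tnrc6c with tamoxifen at the peak had 50.55, 52.47 and 54.54 CPM in Cre+ and 38.44, 43.88 and 42.81 CPM in Cre- libraries, without overlap, but was not called (0.33 ± 0.14, adjusted p = 0.141, edgeR). Ago4 was likewise apart without a call (0.20 ± 0.14, adjusted p = 0.402, edgeR). Ago1 and Ago3 overlapped, at 0.08 ± 0.12 and 0.00 ± 0.10. Across the genome 14.3% of genes were higher in Cre+ without overlap in this state.

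Of the calls with tamoxifen at the peak, that of Tnrc6b held in every alternative, down to 0.43 and an adjusted p of 0.0266 with 1 library left out (edgeR). Once GC content and exonic length were corrected, those of Ago2 (0.39, adjusted p = 0.0724) and Tnrc6a (0.26, adjusted p = 0.147, edgeR) were lost. Tnrc6a also lost its call with DESeq2 size factors (0.33, adjusted p = 0.0560). It lost it as well without a filter (0.32, adjusted p = 0.111) and with only the groups compared (0.32, adjusted p = 0.108, all edgeR). Ago2 also lost its call with the replicate block (0.45, adjusted p = 0.0527, edgeR), while Tnrc6a (adjusted p = 0.0359) and Tnrc6b (adjusted p = 0.00666, both edgeR) kept theirs. In comparisons of genotypes the block treats libraries of the same state and number as pairs, which no label states. Of the 6 libraries, leaving out Cre- replicate 1, Cre- replicate 2, Cre+ replicate 2 or Cre+ replicate 3 left Tnrc6b alone among the calls. Without Cre- replicate 3 Tnrc6a lost its call (0.27, adjusted p = 0.139, edgeR) and Ago2 did not. Marker sums in this state were 292 to 376 CPM (Cre+) and 513 to 673 CPM (Cre-) for astrocytes, 25 to 41.6 CPM (Cre+) and 48.1 to 74.4 CPM (Cre-) for the 4 endothelial markers, and 378 to 4350 CPM (Cre+) and 153 to 237 CPM (Cre-) for neutrophils. Their part in the result was not tested.

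**Figure D3:**
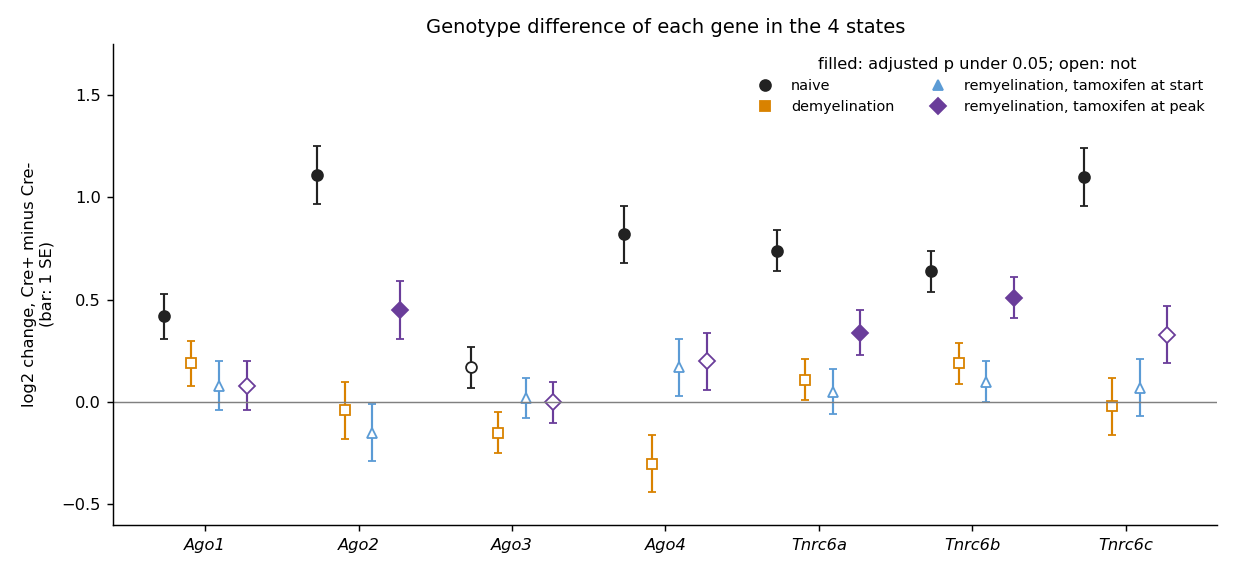
Log2 change of each gene, Cre+ minus Cre-, in the 4 states, with bars of 1 SE from the fit to 24 libraries; filled symbols passed an adjusted p of 0.05. Naive changes reach 1.11 for Ago2, while those in demyelination and with tamoxifen at the start lie between -0.30 and 0.19.

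Whether the genotype difference itself varied with state was tested as the difference between log2 changes. Against the naive effect, that in demyelination was lower for 5 of the 7 genes, where 7.78% of all genes were called lower. These were Ago2 (-1.15 ± 0.19, adjusted p = 0.000418), Ago4 (-1.12 ± 0.19, adjusted p = 0.000561), Tnrc6c (-1.12 ± 0.20, adjusted p = 0.000841), Tnrc6a (-0.63 ± 0.15, adjusted p = 0.00512) and Tnrc6b (-0.45 ± 0.15, adjusted p = 0.0355, all edgeR). Those of Ago2, Ago4 and Tnrc6c passed in every alternative, as they did with GC content and length corrected (-0.84, -0.92 and -0.82). Tnrc6a was not called with that correction (-0.34, adjusted p = 0.171) or without the 3 libraries of low Cx3cr1 (-0.57, adjusted p = 0.0627), and Tnrc6b lost its call in most alternatives, with an adjusted p of 0.654 after the correction (edgeR).

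The effect with tamoxifen at the start was lower than the naive effect for the 5 genes Ago2 (-1.27 ± 0.19, adjusted p = 0.000335), Tnrc6c (-1.03 ± 0.20, adjusted p = 0.00215), Tnrc6a (-0.69 ± 0.15, adjusted p = 0.00448), Tnrc6b (-0.54 ± 0.15, adjusted p = 0.0189) and Ago4 (-0.65 ± 0.19, adjusted p = 0.0329, all edgeR), where 6.5% of all genes were called lower. With the correction, Ago4 (adjusted p = 0.0692) and Tnrc6b (adjusted p = 0.0966) were not called, nor were they without the 3 libraries of low Cx3cr1 (-0.58, adjusted p = 0.0911, and -0.40, adjusted p = 0.105, edgeR). The call of Ago4 was also lost in 8 of the 12 fits with 1 library left out, those without start Cre- replicate 1 or 3, start Cre+ replicate 1 or 2, naive Cre- replicate 2 or 3 or naive Cre+ replicate 1 or 3 (-0.56 to -0.66), and that of Tnrc6b without start Cre+ replicate 2 or naive Cre+ replicate 1 (-0.51 and -0.45). The effect with tamoxifen at the peak was called lower than the naive effect for Tnrc6c only (-0.77 ± 0.20, adjusted p = 0.0418, edgeR), where 1.04% of all genes were called lower. That call was lost in 10 of the 12 fits with 1 library left out (all but those without naive Cre- replicate 1 or naive Cre+ replicate 1), with the replicate block, fitted in every state (adjusted p = 0.0608), and with the correction (adjusted p = 0.112, edgeR). Ago2 (-0.66 ± 0.19, adjusted p = 0.0631) and Ago4 (-0.63 ± 0.19, adjusted p = 0.077, both edgeR) were lower without a call. Ago2 was called without the 3 libraries of low Cx3cr1 (-0.67), without a filter (adjusted p = 0.0115, edgeR) and by DESeq2 (adjusted p = 0.0292). Ago4 was called by DESeq2 (adjusted p = 0.0324). Both were called without naive Cre- replicate 1 (adjusted p = 0.0151 and 0.018, edgeR). Between the tamoxifen times the genotype effect of none of the 7 genes was called different (lowest adjusted p 0.0832, Ago2, edgeR, 2 genes at an unadjusted p under 0.05 and 0 called by DESeq2), where 3.77% of all genes were called. The 3 differences from the naive effect share the naive libraries and are not independent.

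Levels across states show the same groups from the other side, and each is set against the same naive libraries. Remyelination libraries were less than 13 M counts deep and differ in the style of their titles from each other and from the naive and demyelination libraries, so state and library set cannot be told apart in these comparisons.

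In Cre+ microglia, demyelination was lower than naive for 6 of the 7 genes, all but Ago1, where 25.9% of all genes were called lower. Tnrc6c (-0.78 ± 0.14, adjusted p = 4.69e-05) and Tnrc6b (-0.76 ± 0.10, adjusted p = 6.45e-07, both edgeR) fell most. With GC content and length corrected, only Tnrc6b (-0.36, adjusted p = 0.00539) and Tnrc6c (-0.37, adjusted p = 0.0286, edgeR) were called. Without the 3 libraries of low Cx3cr1, which are 3 of the 6 Cre+ libraries compared, 4 genes were called, and Ago3 (-0.21, adjusted p = 0.354) and Ago4 (-0.50, adjusted p = 0.0719, edgeR) were not. Ago3 also lost its call by DESeq2 (adjusted p = 0.0588) and without naive Cre+ replicate 1 or 2 or demyelination Cre+ replicate 2 or 3 (-0.26 to -0.21, edgeR). In Cre- microglia, demyelination was higher than naive for Ago2 (0.68 ± 0.14, adjusted p = 0.000318) and Ago4 (0.60 ± 0.14, adjusted p = 0.00126) and lower for Tnrc6b (-0.31 ± 0.10, adjusted p = 0.0183, edgeR), where 35.9% of all genes were called in either direction. The 3 of 7 genes called are near that share. With the correction Tnrc6b was not called (-0.24, adjusted p = 0.0787) and Tnrc6c was called higher (0.45, adjusted p = 0.0168, edgeR). Without demyelination Cre- replicate 1 Tnrc6b lost its call (-0.31, adjusted p = 0.0572), and without naive Cre- replicate 1 (0.55) or demyelination Cre- replicate 3 (0.46) Tnrc6c was called higher (edgeR). Marker sums differed between these states as well. Microglial markers summed to 33000 to 34700 CPM in demyelination Cre+ and 51900 to 57700 CPM in naive Cre+. In Cre- they summed to 32100 to 35700 CPM and 53800 to 56400 CPM, in the same order. Border macrophage markers summed to 65.4 to 76.1 CPM in demyelination Cre+ and 12 to 15.3 CPM in naive Cre+. In Cre- they summed to 92.4 to 153 CPM and 18 to 24.3 CPM. Their part in these changes was not tested.

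In Cre- microglia, remyelination with tamoxifen at the start was higher than naive for Tnrc6c (1.41 ± 0.15), Ago2 (1.1 ± 0.14), Ago4 (0.97 ± 0.14), Ago1 (0.54 ± 0.12) and Ago3 (0.34 ± 0.10), where 28.8% of all genes were called higher. Tnrc6c had 49.27, 45.96 and 39.59 CPM in these remyelination libraries, against 22.01, 14.5 and 14.48 CPM in naive Cre- libraries. With tamoxifen at the peak, 6 of the 7 genes were higher than in naive Cre-, all but Tnrc6b, where 29.2% of all genes were called higher, and Tnrc6c (1.31 ± 0.15) and Ago4 (1.12 ± 0.14) led again. The call of Ago3 at the start was lost without start Cre- replicate 3 (0.23, adjusted p = 0.0741, edgeR), and that of Tnrc6a at the peak (0.27 ± 0.11) without peak Cre- replicate 1 or 2 or naive Cre- replicate 3 (0.22 to 0.23). The correction left Ago2, Ago4 and Tnrc6c called higher in both comparisons. Tnrc6b then lay below naive, by -0.36 with tamoxifen at the start (adjusted p = 0.00543) and by -0.39 with tamoxifen at the peak (adjusted p = 0.00324, both edgeR), so its direction depends on the correction. Marker sums differed between these states in Cre-: microglia had 29100 to 32400 CPM (start), 30900 to 39000 CPM (peak) and 53800 to 56400 CPM (naive), border macrophages 318 to 370 CPM (start), 167 to 215 CPM (peak) and 18 to 24.3 CPM (naive), and monocytes 79.6 to 117 CPM (start), 31.2 to 50 CPM (peak) and 14.7 to 16 CPM (naive). Their part in the higher levels was not tested.

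In Cre+ microglia, remyelination with tamoxifen at the start was higher than naive for Tnrc6c (0.39 ± 0.14) and Ago4 (0.32 ± 0.14) and lower for Tnrc6a (-0.49 ± 0.10) and Tnrc6b (-0.36 ± 0.10), where 57.9% of all genes were called in either direction. The 4 of 7 genes called are near that share, so the count says little about these genes. After the correction Tnrc6c and Ago4 were not called (0 and 0.27), while Tnrc6a (-0.74), Tnrc6b (-0.75) and also Ago2 (-0.52, adjusted p = 0.00284, edgeR) were called lower. Without the 3 libraries of low Cx3cr1 Tnrc6b was not called (-0.24, adjusted p = 0.0766) and Ago1 was called higher (0.35, adjusted p = 0.0273, edgeR); leaving out naive Cre+ replicate 1 alone did the same (-0.26 and 0.33). The call of Ago4 was lost without any 1 of the naive Cre+ libraries or of start Cre+ replicates 1 and 3 (0.15 to 0.36), and that of Tnrc6c without start Cre+ replicate 1 or 2 (0.29 and 0.35). With tamoxifen at the peak Tnrc6c (0.54 ± 0.14) and Ago4 (0.49 ± 0.14) were higher than naive Cre+, where 22.6% of all genes were called higher, and after the correction Ago4 was (0.42, adjusted p = 0.0123) and Tnrc6c was not (0.20, adjusted p = 0.263, edgeR). Here too the 2 of 7 genes called are near the share of all genes. The correction also called Tnrc6a (-0.38, adjusted p = 0.00897) and Tnrc6b (-0.31, adjusted p = 0.02, edgeR) lower than naive Cre+. Without the 3 libraries of low Cx3cr1 Ago1 was called higher as well (0.35, adjusted p = 0.0373, edgeR). Border macrophage markers summed to 250 to 438 CPM in remyelination Cre+ with tamoxifen at the start and 12 to 15.3 CPM in naive Cre+, and their part was not tested.

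Between the tamoxifen times, whose libraries were of similar depth, none of the 7 genes was called in Cre- microglia (lowest adjusted p 0.803, edgeR, 0 genes at an unadjusted p under 0.05, 0 called by DESeq2), where 0.546% of all genes were called. In Cre+ microglia Tnrc6b (0.38 ± 0.10, adjusted p = 0.0149) and Tnrc6a (0.36 ± 0.11, adjusted p = 0.0236, edgeR) were higher with tamoxifen at the peak than at the start, where 8.83% of all genes were called higher. Ago2 lay apart without a call, with 44.98 to 49.84 CPM at the peak and 34.06 to 37.27 CPM at the start (0.40 ± 0.14, adjusted p = 0.0545, edgeR). It was called with the correction (adjusted p = 0.0405, edgeR), by DESeq2 (adjusted p = 0.0425) and with only the groups compared (adjusted p = 0.0366, edgeR). The calls of Tnrc6b and Tnrc6a were both lost without a filter (adjusted p = 0.0543 and 0.108) and with only the groups compared (adjusted p = 0.0698 and 0.0752, edgeR). Both were also lost without start Cre+ replicate 2, peak Cre+ replicate 2 or peak Cre+ replicate 3 (0.31 to 0.35 for Tnrc6b, 0.28 to 0.37 for Tnrc6a), and that of Tnrc6a without start Cre+ replicate 3 (0.33).

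The order of the 8 groups differed between genes. Ago2 had its lowest mean in naive Cre- (18.8 ± 3.49 CPM, SD, n = 3) and its highest with tamoxifen at the peak in Cre+ (47.4 ± 2.43 CPM). Naive Cre- stood apart from all other groups. The peak Cre+ range (44.98 to 49.84 CPM) stood apart from that of the next group, naive Cre+, but overlapped with that of start Cre- (36.15 to 46.58 CPM). Naive Cre- was also lowest for Ago1, Ago4, Tnrc6a and Tnrc6c, though for Ago1, Ago4 and Tnrc6c its range overlapped with that of the next group. For Tnrc6a its highest library (42.05 CPM) just overlapped with the lowest of start Cre- (42.03 CPM). Ago3 was lowest in demyelination Cre+ and Tnrc6b in demyelination Cre-. For 6 genes Cre+ with tamoxifen at the peak had the highest mean, level with Cre- of the same state for Ago3 (57.7 CPM each). For Tnrc6a naive Cre+ was highest, at 65.3 ± 7.07 CPM, and overlapped with the peak group at 59.8 ± 6.87 CPM.

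Across the 24 libraries all 21 pairs among the 7 genes correlated positively in log2 CPM, with Pearson r of 0.28 (Ago3 and Tnrc6a) to 0.91 (Ago4 and Tnrc6c) and a median of 0.67. The libraries share states, genotype and depth, so these values are a description. After the mean of each state was removed, the pair Ago2 and Tnrc6c was at 0.93 and Tnrc6a and Tnrc6b at 0.88, while Ago3 with Tnrc6c was at 0.16. Among 9824 genes of sufficient level, the most alike in level to Tnrc6c were Map4k4 and Gigyf1 (r 0.98 each), and to Tnrc6b Col27a1 (0.97) and Heatr1 (0.96). Those most like Ago2 were N4bp1 and Gsk3a (0.95 each), like Ago4 Otud4 and Trappc10 (0.95 each), and like Ago1 Huwe1 (0.94) and Ubr4 (0.92). For Ago3 they were Zscan26 (0.92) and Zfp971 (0.91), which dropped to 0.70 and 0.65 without the state means, and for Tnrc6a Slc36a1 (0.90) and Insr (0.88).

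**Figure D4:**
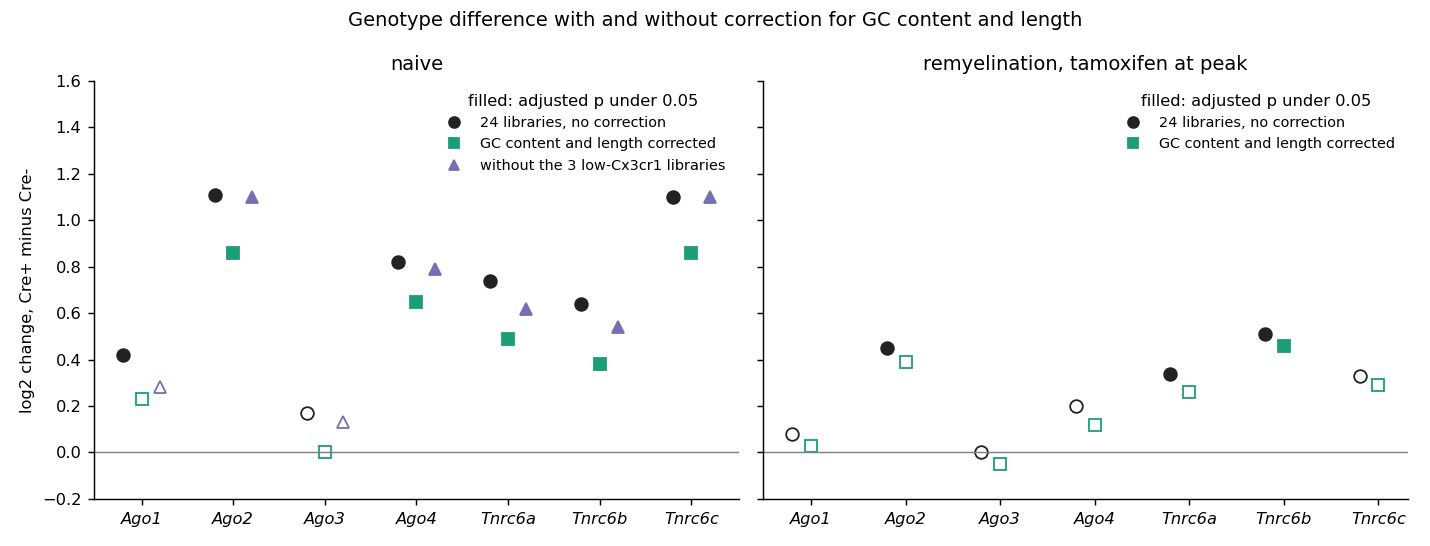
Log2 change, Cre+ minus Cre-, of the 7 genes in the naive state (left) and with tamoxifen at the peak (right), from the fit without correction, with GC content and exonic length corrected and, for naive, without the 3 libraries of low Cx3cr1; filled symbols passed an adjusted p of 0.05. In the naive state Ago2, Ago4, Tnrc6a, Tnrc6b and Tnrc6c are filled in all fits shown, and at the peak Tnrc6b alone is.

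The other steps of the pathway were described from 4 lists, each with all members tested, and their counts in naive microglia stand beside the 14.7% of all genes called higher there and the 2402 of 17579 called lower. The lists too were chosen with earlier results of these data known. The list values are without the correction for GC content and length, and their relation to gene length was not tested. For the list genes in naive microglia, values from the alternatives, also without the libraries of low Cx3cr1, are not given here. In naive microglia, 3 of 12 miRNA biogenesis genes were higher in Cre+ and none was lower (median 0.24, all genes -0.01). These were Tut4, which uridylates precursors (0.61 ± 0.09), Dicer1 itself (0.72 ± 0.16) and Xpo5, the nuclear exporter of precursors (0.50 ± 0.12).

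Of 19 genes of Argonaute loading and turnover, 10 were higher in naive Cre+ and none was lower (median 0.31). Hsp90aa1, an HSP90 chaperone that holds Argonaute open for loading, averaged 501 CPM in Cre+ and 167 CPM in Cre- (1.58 ± 0.14, adjusted p = 5.07e-08, edgeR). Fkbp5, an HSP90 co-chaperone, averaged 122 CPM in Cre+ and 48.6 CPM in Cre- (1.33 ± 0.19). Ankrd52, a subunit of the phosphatase that resets Argonaute after target binding, averaged 22.9 CPM in Cre+ and 10.6 CPM in Cre- (1.12 ± 0.17). Hsp90aa1 was the list gene called in all 4 states, with 0.72 in demyelination, 0.76 with tamoxifen at the start and 0.56 at the peak.

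Of 17 deadenylation genes, 8 were higher in naive Cre+ and 1 was lower (median 0.08). The catalytic subunit gene Cnot6 (0.85 ± 0.13), Cnot3 (0.54 ± 0.10) and Pan3 (0.43 ± 0.10) had the smallest p of those higher. The lower one, named after its value was seen, was Tob1, which links CCR4-NOT to poly(A)-binding protein (-0.71 ± 0.22, adjusted p = 0.0183, edgeR). Of 14 genes of decapping, decay and translational repression, 4 were higher and none was lower (median 0.22). They included Patl1, a decapping scaffold (0.68 ± 0.11), Eif4enif1, an eIF4E-binding repressor (0.37 ± 0.12), and the low-level gene Lsm14b (2.24 ± 0.36, 5.34 CPM in Cre+ and 1.19 CPM in Cre-).

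**Figure D5:**
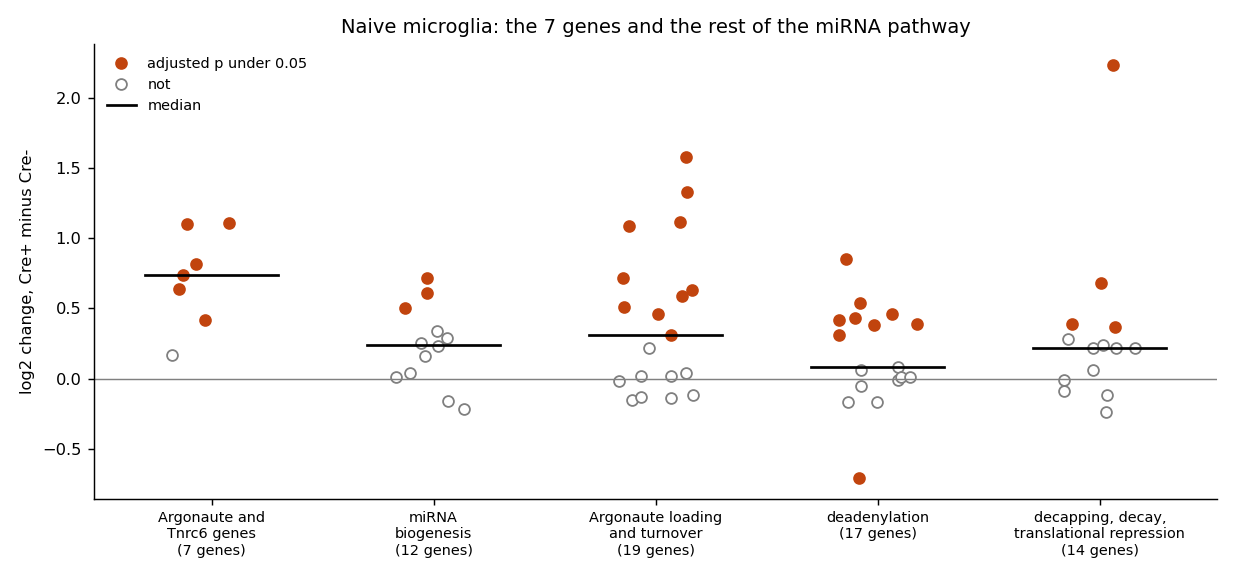
Log2 change, Cre+ minus Cre-, in naive microglia for the 7 genes and for 4 lists of the miRNA pathway; each point is a gene, filled where it passed an adjusted p of 0.05, and the line is the median. Medians are 0.74 for the 7 genes and 0.08 to 0.31 for the lists. No correction for GC content and exonic length was applied to these values. The 7 genes lie at percentiles 80.6 to 99.7 of exonic length over tested genes, and the part of length in this contrast was not tested.

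Over all 17579 genes, 4982 were called in either direction in naive, 1612 in demyelination, 6 with tamoxifen at the start and 1935 at the peak, and the list counts of these states are to be read against those. With tamoxifen at the peak, 3 biogenesis genes were higher (Ran 0.42, Tut4 0.35, Dgcr8 0.50) and 1 was lower (Dis3l2, -0.30), 4 loading and turnover genes were higher (Hsp90aa1 0.56, Fkbp5 0.86, Dnaja2 0.41 and, outside the naming rule, Ahsa1 0.32), the scaffold Cnot1 was higher (0.43) and Pabpc1 lower (-0.38), and Patl1 was higher (0.40). In demyelination the calls were Ran (0.46) and Dis3l2 (-0.34), the chaperone genes Hsp90aa1 (0.72), Fkbp5 (0.83) and, outside the rule, Hsp90ab1 (0.41), the helicase gene Mov10 (0.48), Pabpc4 (0.53) and Eif4e2 (0.39). Leaving out the 3 libraries of low Cx3cr1 leaves 1 demyelination Cre+ library, so whether these calls hold cannot be judged from that fit. The changes there were 0.46 for Ran, -0.21 for Dis3l2, 0.32 for Hsp90aa1, 0.42 for Fkbp5, 0.22 for Mov10, 0.52 for Pabpc4 and 0.26 for Eif4e2. With tamoxifen at the start Hsp90aa1 was the only list gene called.

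Reads of Ago2 and of Chrac1 can overlap, because the exons of Chrac1 on the opposite strand reach into the end of the Ago2 3′ UTR, and whether counting used strand is not given in the sources used here. Chrac1 moved the other way in naive microglia, with 53.16, 50.57 and 46.27 CPM in Cre+ and 66.75, 67.52 and 59.25 CPM in Cre- libraries (-0.37 ± 0.10, adjusted p = 0.00518, edgeR). Tnrc6a shares exon sequence with the lincRNA Gm45846 on its own strand, and Tnrc6b with Mir5113. The share of reads that these overlaps and the similarity among the paralogs could misassign was not tested.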

How the data were processed

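The submitters' processing notes name Trimmomatic 0.36, STAR 2.5.2b, featureCounts, Subread 1.5.2, DESeq2 and the mouse build GRCm38, with no roles stated. RNA was extracted with a column kit and libraries were made with an ultra-low input kit, per the labels. The deposited values used here are raw counts per Ensembl gene, made by the authors. Of 49315 identifiers 49056 matched GENCODE M21, which gave symbols, positions, exon lengths and 3′ UTRs; 259 did not. How strand and multimapping were treated was not stated.

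Counts were tested in R 4.3.3 with edgeR 4.0.16: filterByExpr over 8 groups (17579 genes), TMM scaling, 1 robust quasi-likelihood fit of 8 group means to 24 libraries (16 residual degrees of freedom), 2-sided F tests of 16 comparisons, each Benjamini-Hochberg adjusted over all genes, threshold 0.05. CPM use TMM-scaled totals, and log2 CPM a prior count of 2. The replicates are described as biological, without naming animals. Each group had 3 libraries, totals were lowest in remyelination (8.87 to 12.56 M), and an effect of depth on precision was not tested.

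Alternatives were DESeq2 size factors, the DESeq2 1.42.0 Wald test, no filter, a replicate block, a GC and length offset (natural splines, 5 degrees of freedom), fits of the compared groups only, 1 library left out, and leaving out the 3 libraries of low Cx3cr1. For comparisons of genotypes, and of genotype effects between states, the block joined libraries of the same number within each state. For comparisons between states within a genotype it joined the same number across all states and both genotypes. No label states that replicate numbers pair Cre+ with Cre- libraries or join libraries across states. With tamoxifen at the peak, residuals of same-numbered libraries correlated weakly, at 0.23, 0.19 and 0.16, and those of different numbers at -0.16 to -0.01. In naive, same-numbered libraries were at -0.11, 0.07 and 0.23, and in the start groups at 0.01, -0.12 and -0.1. In demyelination they were at -0.19, -0.08 and -0.32. Different numbers reached 0.25 in the start groups and 0.27 in demyelination. Values of this size do not settle whether the numbers pair libraries. The main fit took no numbers as pairs in any state, also at the peak, and the block was fitted in every state as an alternative. Genes named are the 7 genes, Dicer1, Cx3cr1, Chrac1, per gene the 2 of highest Pearson r, and up to 3 called genes per list and genotype comparison. The members and lists were chosen with earlier results of these data known. Python 3.11.15 and matplotlib 3.10.9 were used for the site search and figures.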

Additional observations from a re-analysis of the deposited data

Results flagged for a closer look

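The genotype effect (Cre+ minus Cre-) differed between states, by the test of that difference, for 11 pairs of gene and states. Demyelination minus naive gave -1.15 for Ago2, -1.12 for Ago4, -1.12 for Tnrc6c, -0.63 for Tnrc6a and -0.45 for Tnrc6b on the log2 scale. Tamoxifen at the start minus naive gave -1.27 for Ago2, -1.03 for Tnrc6c, -0.69 for Tnrc6a, -0.65 for Ago4 and -0.54 for Tnrc6b. Tamoxifen at the peak minus naive gave -0.77 for Tnrc6c. All 11 are set against the same naive libraries.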

How the results depend on the processing

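A direction is called reversed here only where the change was called with or without the alternative. The genotype comparisons of the 7 genes had no reversed direction in any alternative. In naive 93 of 98 alternative values stayed on their side of the threshold, and the 5 others were all of Ago1. With the correction for GC content and length, Ago3 in demyelination minus naive Cre+ turned to 0.10, Tnrc6b in start minus naive Cre- to -0.36, Tnrc6a and Tnrc6b in peak minus naive Cre- to -0.15 and -0.39, and Tnrc6b in peak minus naive Cre+ to -0.31. With the replicate block added to that correction these were 0.10, -0.36, -0.15, -0.39 and -0.30, and Tnrc6c in start minus naive Cre+ turned to -0.01. The cause was not tested.

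The number of the 7 genes called fell to 1 of 3 for the genotype at the peak with the correction, also with the block (1), and was 1 to 3 with 1 library left out. For the effect in demyelination minus naive it was 3 with the correction, 3 with correction and block, and 3 without the low-Cx3cr1 libraries, against 5. For start minus naive it was 3 under each of these and 3 without a filter, against 5, and 3 to 5 with 1 library left out. For peak minus naive it was 2 without a filter, 0 with the block, 0 with the correction, 0 with both, 2 without the low-Cx3cr1 libraries, 3 by DESeq2 and 0 to 3 with 1 library left out, against 1. For peak minus start of the effect it was 0 to 1 with 1 library left out. Demyelination minus naive in Cre+ gave 2 with the correction and 2 with correction and block, against 6. Start minus naive in Cre+ gave 2 to 4 with 1 library left out, peak minus naive in Cre+ 4 with only the groups compared, against 2, and peak minus start in Cre+ 0 without a filter, 1 with only the groups compared and 0 to 2 with 1 library left out, against 2. The replicate block changed no other call count of the 7 genes by over 1.5 times. No label states a pairing, and in the main fit the numbers are taken only to name samples, in every state.

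Over all genes, the demyelination genotype calls were 1612, and 81 without the low-Cx3cr1 libraries and 422 to 2165 with 1 library left out. At the start 6 were called, and 81 without a filter, 40 with only the groups compared, 65 by DESeq2 and 1 to 7 with 1 left out; at the peak 1935, and 853 to 2117 with 1 left out. The effect in demyelination minus naive had 2769, and 1625 without the low-Cx3cr1 libraries; start minus naive 1802, and 1120 to 1879 with 1 left out; peak minus naive 390, and 889 without a filter, 210 with the block, 255 with block and correction, 242 with only the groups compared, 1096 by DESeq2 and 89 to 1014 with 1 left out; peak minus start 662, and 996 by DESeq2 and 255 to 898 with 1 left out. Peak minus start had 96 in Cre-, and 244 without a filter, 180 with only the groups compared, 226 by DESeq2 and 32 to 106 with 1 left out, and in Cre+ 2391, and 1341 to 2281 with 1 left out.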
